A study of Homo sapiens with 2 samples.

Results

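The 9 genes described here encode enzymes that make or use asparagine, proline, glutamine, alanine and cysteine. They were chosen by gene name: ASNS, the proline enzymes ALDH18A1, PYCR1, PYCRL and PRODH, the glutamine and alanine enzymes GLUL and GPT2, and the transsulfuration enzymes CBS and CTH. Each name was found once in the tables of both samples, so that 9 of 25277 gene rows were followed. RNA was sequenced from HEK293 cells, a human embryonic kidney line, with 1 WT sample and 1 sample labelled PERK-KO (also written KO). Both had been kept for 12 h in OXPHOS medium, which holds no glucose but 10 mM galactose and 1 mM pyruvate, so that cells rely on oxidative phosphorylation. The KO cells were made by CRISPR/Cas9 and grown from single cells. A difference between the genotypes therefore cannot be told apart from a difference between a clone and the parental line, or between 2 cultures. Cells kept in glucose were not analysed here, so the effect of the medium itself was not measured.

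Values are FPKM, fragments scaled to exon length and to the mapped fragments of the library, with the lower and upper confidence limits that the authors deposited. FPKM is scaled by transcript length, so levels can be set side by side between genes as well as between samples. Comparisons between genes depend on the annotated lengths, which are not given here, and on how shared reads were assigned. The limits cover counting error within 1 library only. With 1 sample per genotype there was no replicate error and no test, and a difference is described by its ratio, PERK-KO over WT, with the interval that the limits of both samples give. In bulk RNA, fewer cells making a transcript and less transcript per cell cannot be told apart. The total number of reads is unknown. From the width of the limits, the level of CTH in WT rested on the equivalent of 116 fragments and that of GLUL in the KO on 2775, and PRODH in the KO had the fewest, 87.2. Of 8 marker genes of HEK293 cells, 5 reached an FPKM of 1 in WT and 7 in the KO, and the neuronal filament genes NEFM and INA had 0.662 and 0.458 in WT against 5.21 and 4.13 in the KO. The other 6 were lower in the KO, among them NEFL (44.9 and 33.4), KRT8 (640 and 437) and VIM (418 and 378), and the summed FPKM of the list was 1348 in WT and 1063 in the KO. Whether these differences bear on the enzymes was not tested. Of 12 markers of other cell types, 3 reached an FPKM of 1 in each sample. These were COL1A1 (4.97 in WT and 4.62 in the KO), ADIPOQ (1.68 and 1.42) and PECAM1 (1.35 and 1.36). A further 6 were listed at 0 in both samples, and the summed FPKM of the 12 was 8.11 in WT and 7.95 in the KO. EIF2AK3, the gene for PERK, stood at 5.61 FPKM (5.11 to 6.12) in WT and 3.89 (3.44 to 4.34) in the KO, a ratio of 0.693. Transcript from an edited gene can still be counted, so this level does not measure the loss of the protein.

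Asparagine synthetase moves the amide nitrogen of glutamine onto aspartate. Proline is built from glutamate in the mitochondria through a short chain of enzymes, and cysteine is built from homocysteine and serine by transsulfuration. Several of these genes are textbook targets of ATF4, a transcription factor whose mRNA is translated more when PERK or a related kinase phosphorylates eIF2α, and which binds DNA with C/EBP family partners at C/EBP-ATF response elements.

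The promoter of ASNS is shown first, because it holds the classic response element of this kind. The reference promoters, each 250 bases before to 50 bases after a transcription start (RefSeq, GRCh38.p14), covered 5 of the 9 genes with 9 starts: ASNS, ALDH18A1, GLUL, CTH and CBS. Both strands were searched for TGATGNAA, the core of the C/EBP-ATF element. The 150 bases just upstream of 1 start are given for ASNS and for the 2 genes with the highest ratios, CBS and CTH, each 5′ to 3′ on the gene's own strand, with capitals marking TGATGNAA. They lie at chr7:97872409-97872558 on the minus strand for ASNS, at chr1:70411118-70411267 on the plus strand for CTH and at chr21:43076378-43076527 on the minus strand for CBS.
ASNS: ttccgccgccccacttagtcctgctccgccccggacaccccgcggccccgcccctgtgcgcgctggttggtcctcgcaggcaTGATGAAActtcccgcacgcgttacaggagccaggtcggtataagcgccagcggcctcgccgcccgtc
CTH: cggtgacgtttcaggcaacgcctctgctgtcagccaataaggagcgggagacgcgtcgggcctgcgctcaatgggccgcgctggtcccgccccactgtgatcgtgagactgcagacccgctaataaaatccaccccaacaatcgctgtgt
CBS: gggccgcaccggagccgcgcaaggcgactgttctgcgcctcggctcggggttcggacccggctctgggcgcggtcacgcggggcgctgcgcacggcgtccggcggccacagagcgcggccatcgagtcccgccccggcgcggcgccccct

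The letters were found in 1 of the 9 windows, that of ASNS, as TGATGAAA from 68 to 61 bases before the start on the plus strand of the gene. Among all 35116 promoters of the reference, 3.62% held TGATGNAA and 1.11% held TGATGAAA. ASNS also held GTTACA from 48 to 43 bases before the start, the letters of the nutrient-sensing element that lies next to the first in this promoter. These were searched for after the sequence had been read, and 6.66% of all promoters held them. TGATGCAA, another form of the element, was in none of the 9 windows and in 0.866% of all promoters. The CRE palindrome TGACGTCA was in none of the 9 windows and in 1.85% of all promoters. These matches describe letters in short windows and do not measure binding.

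In the KO, 5 of the 9 enzymes stood above WT by more than 1.5-fold, and none stood below it by that factor. CBS, CTH and ASNS were above 2-fold, GPT2 was 1.96-fold higher and PYCR1 1.64-fold. ALDH18A1 and GLUL were higher by less than 1.5-fold, and PYCRL and PRODH were lower. Over all 14594 genes whose FPKM reached 1 in either sample, which are called expressed here, 10.1% had a ratio above 1.5 and 7.54% were lower in the KO by that factor. The median log2 ratio was 0.71 over the 9 enzymes and 0.04 over all these genes. The confidence limits of the samples lay apart with the higher value in the KO for 7 of the 9 enzymes, against 26.1% of all genes, and with the lower value for PYCRL, against 18.7% of all genes. The limits of PRODH overlapped. Whether limits lie apart depends on the number of fragments as well as on the ratio, and these shares were not matched for level. The 5 were both transsulfuration genes, the asparagine gene, the alanine gene and, of the 4 proline genes, PYCR1. Because the 9 genes were chosen with earlier results of these data known, these shares describe the set and do not test it.

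ASNS (chr7:97481429-97501854 on the minus strand in GRCh37, the build of the deposited tables and of all gene positions that follow, 13 exons in its canonical transcript) had an FPKM of 32.5 (30.5 to 34.6) in WT. In PERK-KO cells it had 78.7 (74.8 to 82.7). The ratio was 2.42 (interval 2.23 to 2.63), a log2 ratio of 1.27, and 301 of the 14594 genes had a higher ratio. ASNS had the 4th highest level of the 9 genes in WT and the 2nd in the KO, where its limits overlapped those of ALDH18A1. NARS, which charges tRNA with the asparagine that ASNS makes, had 60.7 (58.5 to 62.8) in WT and 57.0 (54.8 to 59.2) in the KO, with overlapping limits. The level of ASNS was thus 0.537 times that of NARS in WT and 1.38 times in the KO. ASNSD1, a gene named for a domain shared with asparagine synthetase, had 25.3 and 27.0 with overlapping limits. A transcript of another gene record shares 2374 bases with ASNS, and that of a further record shares 243 bases at 95.1% identity. The FPKM of ASNS may include their reads.

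ALDH18A1 encodes the mitochondrial enzyme that starts proline synthesis by turning glutamate into its semialdehyde. At chr10:97365686-97416567 on the minus strand, it had 63.2 (60.3 to 66.2) in WT and 75.2 (71.7 to 78.6) in the KO. The limits lay apart, and the ratio was 1.19 (interval 1.11 to 1.27). The last step of proline synthesis is carried by pyrroline-5-carboxylate reductases, of which that of PYCR1 acts in mitochondria and that of PYCRL (now named PYCR3) in the cytosol. PYCR1 (chr17:79890267-79894968, minus strand) had 37.8 (35.2 to 40.3) in WT and 61.8 (58.0 to 65.5) in the KO, a ratio of 1.64 whose interval, 1.49 to 1.79, reached below 1.5. A transcript of another gene record shares 390 bases with PYCR1, and how reads were assigned between the pair is unknown. PYCRL (chr8:144686083-144691784, minus strand) had 23.1 (21.7 to 24.5) and 20.3 (18.9 to 21.6), a ratio of 0.878 (interval 0.802 to 0.960), with limits that lay just apart. PYCR1 was thus 1.64 times the level of PYCRL in WT and 3.05 times in the KO.

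PRODH encodes proline dehydrogenase, which opens proline breakdown in mitochondria. At chr22:18900287-18924066 on the minus strand, it had 3.51 (2.88 to 4.13) in WT and 2.62 (2.06 to 3.18) in the KO. The limits overlapped, and the ratio of 0.748 had an interval of 0.565 to 0.989. DGCR6 overlaps PRODH on the opposite strand over 583 bases in GENCODE, so its reads may be counted in these values. ALDH18A1 stood 18.0 times above PRODH in WT and 28.7 times in the KO, so that the gene for the first synthetic step far exceeded the gene for breakdown in both. ALDH4A1, which completes breakdown to glutamate, had 9.76 (8.92 to 10.6) and 8.49 (7.63 to 9.34), and OAT, which links ornithine to proline, had 77.6 (73.8 to 81.4) and 72.6 (68.6 to 76.6), both with overlapping limits.

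GLUL, which encodes glutamine synthetase, had the highest level of the 9 genes in both samples. At chr1:182350839-182361341 on the minus strand, it had 111 (107 to 116) in WT and 128 (123 to 133) in the KO, a ratio of 1.15 (interval 1.09 to 1.22) with limits apart. This small difference did not keep its direction when ratios were set against genes of like transcript length, as described further on.

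GPT2 encodes the mitochondrial alanine aminotransferase, which passes nitrogen between glutamate and alanine. At chr16:46918308-46965201 on the plus strand, it had 8.30 (7.55 to 9.05) in WT and 16.3 (15.1 to 17.5) in the KO, a ratio of 1.96 (interval 1.75 to 2.21). The cytosolic isoenzyme GPT was under an FPKM of 1 in both samples, with 0.456 (0.221 to 0.691) and 0.756 (0.433 to 1.08) and overlapping limits. GPT2 was therefore 18.2 times the level of GPT in WT and 21.6 times in the KO. The aspartate aminotransferases, which also use glutamate, stood closer to a ratio of 1, with 31.4 and 30.3 for GOT1 (overlapping limits) and 65.8 (63.4 to 68.2) and 74.0 (71.3 to 76.8) for GOT2 (limits apart).

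The highest ratios of the 9 genes were those of the transsulfuration pair. CBS encodes cystathionine β-synthase, which joins homocysteine and serine. At chr21:44473301-44496472 on the minus strand, it had 12.9 (11.8 to 13.95) in WT and 41.6 (39.2 to 44.1) in the KO, a ratio of 3.24 (interval 2.92 to 3.59). A duplicate record annotated at this locus shares all 2495 bases of its transcript, and how reads were assigned between them is unknown. CTH encodes cystathionine γ-lyase, which splits the product to release cysteine. At chr1:70876901-70905534 on the plus strand, it had 3.17 (2.58 to 3.76) in WT and 8.84 (7.75 to 9.93) in the KO, a ratio of 2.78 (interval 2.23 to 3.48). The 2 intervals overlapped, so the ratios of the pair were not distinguished at this depth. CBS was 4.05 times the level of CTH in WT and 4.71 times in the KO. In all, 206 of the 14594 genes had a higher ratio than CBS and 239 a higher ratio than CTH.

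**Figure D1:**
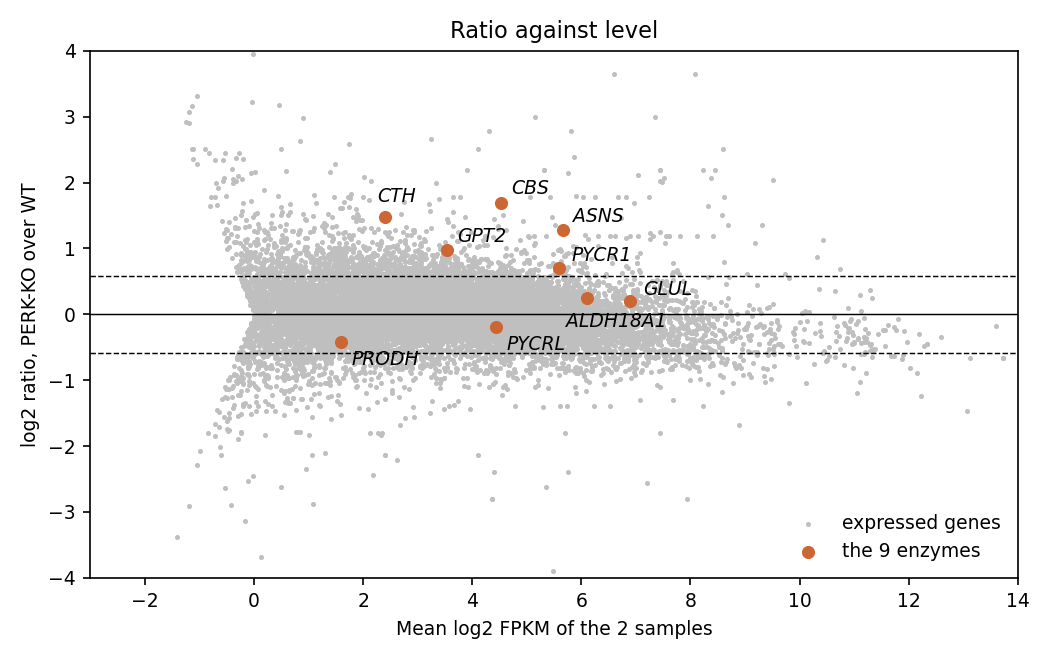
log2 ratio of PERK-KO over WT against the mean log2 FPKM of the 2 samples, for expressed genes (grey) and the 9 enzymes (orange). Dashed lines mark 1.5-fold; 37 genes outside the axes and 155 genes at 0 in 1 sample are not drawn. CBS, CTH, ASNS, GPT2 and PYCR1 lie above the upper line.

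Levels of the 9 genes spanned 35.0-fold in WT, from GLUL to CTH, and 48.8-fold in the KO, from GLUL to PRODH. The order in WT was GLUL, ALDH18A1, PYCR1, ASNS, PYCRL, CBS, GPT2, PRODH and CTH, and the limits of PRODH and CTH overlapped while all other neighbours were apart. The order in the KO was GLUL, ASNS, ALDH18A1, PYCR1, CBS, PYCRL, GPT2, CTH and PRODH, and there ASNS and ALDH18A1 overlapped. CBS thus stood below PYCRL in WT and 2.05 times above it in the KO. GLUL made up 37.6% of the summed FPKM of the 9 genes in WT and 29.5% in the KO, whereas ASNS made up 11.0% and 18.2%.

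The other genes of these pathways were taken from 4 lists. Of the 14 expressed genes listed for asparagine and aspartate, ASNS itself was the 1 gene with a ratio above 1.5 (7.14%). None was lower by as much, beside 10.1% higher and 7.54% lower among all genes. The list had a median log2 ratio of 0.04. In PERK-KO cells the limits were apart and higher for genes including ADSS (ratio 1.29) and GOT2 (1.13), and apart and lower for NIT2 (0.865) and DARS (0.905). Of the 10 expressed proline genes, PYCR1 alone was more than 1.5-fold higher and none was lower by that factor, with a median of -0.02. The share higher was thus 10%, close to the 10.1% of all genes. Outside the 9 genes, P4HA1, a subunit of the enzyme that hydroxylates proline in collagen, had a ratio of 1.14, and PEPD, which releases proline from dipeptides, had 0.817, each with limits apart.

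Of the 19 expressed genes for glutamine and glutamate, 4 had a ratio above 1.5 and 1 was lower by that factor, beside 10.1% and 7.54% of all genes, with a median of 0.23. The limits were apart and higher for 12 of the 19, beside 26.1% of all genes. The 4 were GPT2, CTPS2, GFPT1 and EPRS. EPRS, the synthetase that charges tRNA with glutamate and proline, had 34.1 (32.9 to 35.2) in WT and 58.4 (56.7 to 60.02) in the KO, a ratio of 1.71. GFPT1, which spends glutamine on hexosamine synthesis, had 8.07 (7.52 to 8.63) and 13.4 (12.6 to 14.2), a ratio of 1.66. It fell below 1.5-fold when set against genes of like transcript length, as described further on. CTPS2, a CTP synthase, had 0.0682 (0 to 0.144) and 2.33 (1.94 to 2.72), and the low WT level leaves the size of that ratio poorly fixed. The lower gene was GLS2, a glutaminase, with 3.42 (2.86 to 3.97) and 2.195 (1.73 to 2.66), a ratio of 0.643. Just under 1.5-fold stood PPAT (ratio 1.495) and CAD (1.48), which use glutamine nitrogen for purine and pyrimidine synthesis.

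Of the 21 expressed genes for transsulfuration, methionine and cysteine, CBS, CTH and CHAC1 had a ratio above 1.5. The shares were 14.3% higher and 4.76% lower by that factor, beside 10.1% and 7.54% of all genes. SQRDL, which oxidises hydrogen sulfide, was lower by that factor, with 1.97 (1.46 to 2.48) and 1.196 (0.769 to 1.62), but the limits overlapped. Its difference was smaller than 1.5-fold when set against genes of like transcript length, as described further on. CHAC1, which breaks down glutathione, had 3.44 (2.68 to 4.21) in WT and 7.26 (6.12 to 8.41) in the KO, a ratio of 2.11. GCLM and GCLC, the subunits of the enzyme that commits cysteine to glutathione, had ratios of 1.48 and 1.31 with limits apart. AHCY, which supplies homocysteine to CBS, had 286 (273 to 299) and 273 (260 to 285), and MPST, which takes sulfur from a cysteine product, had 80.4 (75.7 to 85.1) and 73.2 (68.5 to 77.9), both with overlapping limits. Without CBS and CTH the list had a median of -0.07, and 5.26% of its 19 expressed genes had a ratio above 1.5.

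Over the 4 lists without the 9 enzymes, 53 genes were expressed, of which 4 had a ratio above 1.5 and 2 were lower by that factor. These are 7.55% and 3.77%, beside the 10.1% and 7.54% of all genes given above. The median log2 ratio of these 53 genes was 0.07.

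ATF4 mRNA was itself more abundant in the KO, with 342 (326 to 358) in WT and 506 (483 to 528) in the KO, a ratio of 1.48 with limits apart. ATF3 had 37.2 (35.0 to 39.4) and 57.7 (54.6 to 60.8), a ratio of 1.55. The partner genes CEBPB and CEBPG had ratios of 1.26 and 1.25 with limits apart, TRIB3 had 1.26 with limits apart, and DDIT3 (CHOP) and ATF5 had 1.14 and 1.07 with overlapping limits. The interval of the ratio was 1.02 to 1.27 for DDIT3 and 0.972 to 1.18 for ATF5. The ratios of ATF4 and DDIT3 were larger when set against genes of like transcript length, as described further on. SLC7A11, the exchanger that brings in cystine, had 2.35 (2.11 to 2.597) and 7.86 (7.31 to 8.40), a ratio of 3.34 (interval 2.95 to 3.78). The neutral amino acid transporters SLC1A4, SLC1A5 and SLC38A2 had ratios of 1.41, 1.29 and 1.15 with limits apart. Levels of the ATF4 protein were not measured in these data.

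To see how far ratios followed transcript length, each enzyme was set against the 200 expressed genes nearest in the length of the canonical transcript (GENCODE 44 on GRCh37). The median log2 ratio of those genes lay between -0.05, for PYCR1, and 0.29, for GLUL. The log2 ratio minus the median of those genes was 1.70 for CBS, 1.51 for CTH, 1.299 for ASNS, 0.82 for GPT2 and 0.76 for PYCR1, all still above 1.5-fold. For ALDH18A1 it was 0.15. For GLUL, whose canonical transcript of 7554 bases reaches beyond the deposited locus, it was -0.088, against 0.20 before, and with the 3948 exon bases inside the locus it was 0.05. The direction of GLUL therefore depended on this choice. The canonical transcripts of ASNS, PYCR1, PYCRL and GPT2 also reach beyond their deposited loci. With the exon bases inside the locus, their values were 1.34, 0.74, -0.24 and 0.81. PYCRL and PRODH were below 0, at -0.28 and -0.38. Some genes of the lists were treated in the same way. GFPT1 went from a log2 ratio of 0.73 to 0.36, EPRS from 0.78 to 0.59 and CAD from 0.57 to 0.22, whereas CHAC1 went from 1.08 to 1.23. PPAT went from 0.58 to 0.51 and CTPS2 from 5.10 to 4.95. Of the lower genes, SQRDL went from -0.72 to -0.57, inside 1.5-fold, and GLS2 from -0.64 to -0.61, still beyond it. ATF4 went from 0.56 to 0.76, past 1.5-fold, ATF3 from 0.63 to 0.70, DDIT3 from 0.19 to 0.50 and CEBPB from 0.34 to 0.48. TRIB3 and ATF5 were also higher after this step, at 0.34 and 0.18. SLC7A11 went from 1.74 to 1.47, SLC1A4 from 0.49 to 0.30 and SLC38A2 from 0.20 to 0.04. CEBPG and SLC1A5 were also lower after it, at 0.23 and 0.33. The counts given for the lists were not adjusted for length.

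HEK293 cells are aneuploid, and clones can differ in stretches of chromosome, so the genes within 2 Mb were examined as well. The median log2 ratio of these neighbours was -0.06 over 34 genes for ASNS, 0.01 over 33 genes for CBS, 0.00 over 13 genes for GPT2 and -0.10 over 68 genes for PYCR1. For CTH it was 0.25 over 6 genes, and for GLUL 0.13 over 19 genes. Neighbours with a ratio above 1.5 numbered 4 for CBS, 3 for ASNS, 3 for PYCR1, 1 for GPT2 and 0 for CTH. Those lower by that factor numbered 1 for CBS, 3 for ASNS, 8 for PYCR1, 0 for GPT2 and 0 for CTH. Among all genes the shares were 10.1% higher and 7.54% lower. Relative to these neighbours CTH was at 1.23, ASNS at 1.33 and CBS at 1.69. The copy number of each gene was not measured, and its part in the ratios was not tested.

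**Figure D2:**
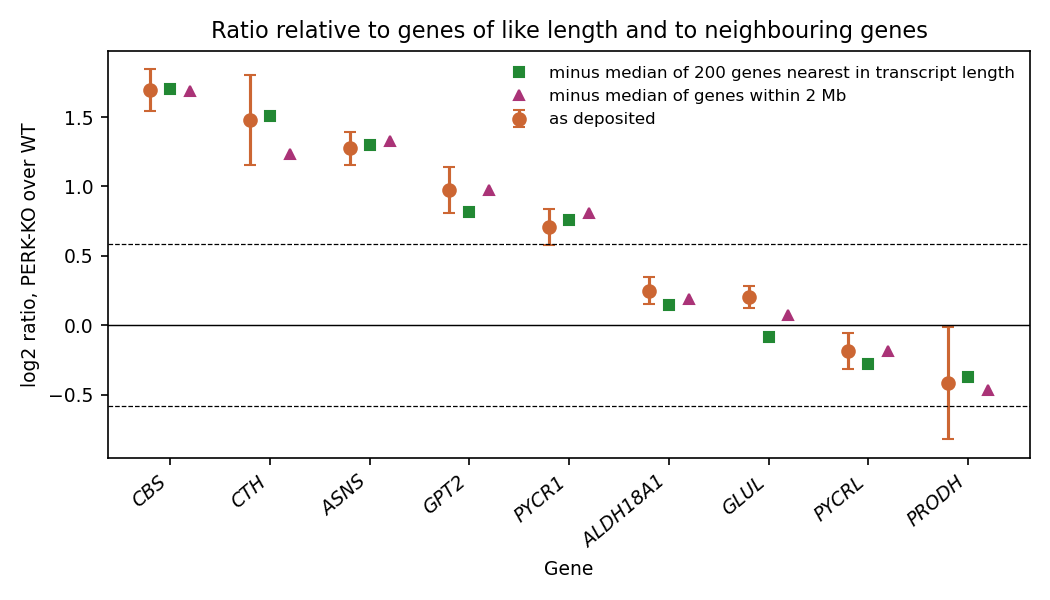
log2 ratio of PERK-KO over WT for each enzyme as deposited (orange, bars are the interval from the confidence limits), after subtracting the median of the 200 genes nearest in transcript length (green squares) and of the expressed genes within 2 Mb (purple triangles). The 5 genes on the left stay above the dashed 1.5-fold line in all 3, and GLUL crosses 0, from 0.20 to -0.088.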

How the data were processed

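Per the labels and the paper's methods, poly(A) mRNA of 1 WT and 1 PERK-KO sample was sequenced, and the authors mapped reads to GRCh37/hg19 with TopHat2 and computed FPKM with Cufflinks and Cuffdiff. The submitters' processing notes name TopHat2 2.0.13 and Cufflinks 2.2.1. The deposited values are FPKM and their 2 confidence limits for each gene, not read counts, so no count model was fitted and the depth of each sample is unknown. The medium and the clonal origin of the KO cells come from the methods, not the labels. The annotation is not given in the sources used here.

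From these values, ratios of PERK-KO to WT were computed without a pseudocount for the 14594 genes that reached 1 FPKM in either sample. The limits were read as the value ± 2 SD, from which intervals of ratios (on the log scale) and equivalent fragment numbers, (FPKM/SD) squared, were derived. Overlapping limits do not mean equal levels. The interval of the ratio left out 1 for some genes with overlapping limits, among them PRODH, DDIT3, NARS, ALDH4A1 and MPST. A threshold of 1.5-fold was used in both directions. The members and lists were chosen with earlier results of these data known. Of the 69 list symbols, HYPDH and CTPS were not among the gene names. All 9 members, the context genes, the partners of each member and every list gene beyond 1.5-fold are named, apart from a few genes of the lists that are counted but not reported here; other list genes are given as examples chosen after their values were seen. Transcript lengths were matched for 92.6% of these genes. Transcripts at least 95% identical over 200 bases were sought with BLAST+ 2.17.0. Calculations were tested on simulated data. Python 3.11.15, numpy 2.4.6, pandas 2.3.3 and matplotlib 3.10.9 were used. The alternatives were other thresholds, pseudocounts, filters, scalings, and length or neighbourhood centring.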

Additional observations from a re-analysis of the deposited data

How the results depend on the processing

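No paired analysis was possible because each genotype has 1 sample, and no replicate could be left out for the same reason. The number of enzymes with a ratio above 1.5, which was 5, comprised the same genes (ASNS, CBS, CTH, GPT2 and PYCR1) with pseudocounts of 0.1 and 1, with the filters, with both scalings, with only limits that lay apart, with summed rows, and after subtracting the medians over length or neighbours. At a 2-fold threshold it was 3, as GPT2 and PYCR1 dropped out, beside 3.28% of all genes. The number lower was 0, and 1 of the 9 (PRODH) at a 1.3-fold threshold, beside 15.3% of all genes. The median log2 ratio of the members was 0.84 where an FPKM of at least 5 in 1 sample was required, which leaves out PRODH, and from 0.67 to 0.81 otherwise. GLUL reversed to -0.088 with the running median over transcript length, was 0.05 with the exon length inside the deposited locus and 0.07 relative to its neighbours; the cause was not tested. Over all settings the log2 ratio of ALDH18A1 ranged from 0.13 to 0.25. The 2 Mb and exon-length alternatives and GTTACA were chosen after seeing the data. Among all 14594 genes, 1481 were above and 1100 below 1.5-fold, against 2944 and 2237 at 1.3-fold and 479 and 304 at 2-fold. With a pseudocount of 1 the numbers were 944 and 767. They were 2496 and 1942 among the 18201 genes above 0 in both samples, and 872 and 702 among the 10355 with at least 5 FPKM. After subtracting the medians they were 867 and 698 of 13507 genes with transcript length, and 912 and 655 of 13498 with exon length. Depth limits PRODH and CTH most, with half-widths of 21.4% (PERK-KO) and 18.6% (WT) of their values.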
